A study of Mus musculus with 11 samples.

Results

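The exons described here are alternative exons longer than 60 nt whose length is divisible by 3, so that including or skipping one leaves the reading frame around it unchanged. They were chosen by reads and control PSI from the authors' table of splicing events as exons with at least 10 inclusion and exclusion reads together in every library and a mean inclusion above 5% and below 95% in the control libraries. Inclusion is given as percent spliced in (PSI), the percentage of reads across the exon's junctions that include it. The rule found 2471 exons in 1862 genes, of 57626 listed exons of such a length and 34599 of these with enough reads, and of 364439 listed events in all. Because the exons were selected on control PSI, their control levels are a description and were not tested.

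RNA came from the mouse neuroblastoma line N2A (Neuro-2A), harvested 48 h after lipid transfection with pools of small interfering RNAs, and 11 libraries of polyadenylated RNA were sequenced. The pools targeted Fubp1, Khsrp, Khsrp and Fubp1 together (the double knockdown), or Rbm38, with 2 libraries each, and 3 control libraries (siNT) received non-targeting pools, so every group, controls included, was transfected. The series describes the replicates as biological without saying what was kept separate, so p-values measure the spread between these libraries, which may be partly technical. The series title places the experiment in a study of splicing regulators of neurogenesis.

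Skipping an exon whose length is a multiple of 3 removes a stretch of amino acids and keeps the protein downstream of it, whereas skipping another exon shifts the frame and often exposes the mRNA to nonsense-mediated decay. Neurons use many in-frame exons to change binding surfaces of cytoskeletal, adhesion and synaptic proteins. Fubp1 and Khsrp (also called Fubp2 or KSRP) are paralogous RNA-binding proteins with KH domains, both known as splicing regulators that bind single-stranded sequence often rich in uridine, and Khsrp also acts in mRNA decay. Rbm38 binds RNA through an RNA recognition motif and is known for control of mRNA stability and splicing.

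In the authors' deposited expression table the targeted transcripts were lower in their own knockdowns. As the authors deposited them, Fubp1 had 180 RPKM in the controls against 27.9 after its own and 19.8 after double knockdown. Khsrp had 47.0 RPKM against 8.06 and 6.77, and Rbm38 had 34.5 RPKM against 4.03, also as deposited by the authors. The neuroblastoma and neuronal genes Hand2, Tubb3 and Stmn2 stood at 227, 386 and 237 RPKM in siNT in the same table by the authors. In RNA of whole cultures, fewer cells of a type and less RNA per cell cannot be told apart. The median number of reads behind a PSI value of these exons was 144 to 341, depending on the library. Between libraries of 1 group PSI differed by a median of 2.86 to 4.44 points, and 10.2% to 19.8% of the exons differed by 10 points or more. In the titles the Fubp1 libraries and siNT A and B are numbered 1 to 4, while siNT C and the other 6 are numbered 8 to 27, and no label says what these numbers mean. The median PSI difference was 3.28 points between siNT A and B, but 4.44 and 4.17 points between either of them and siNT C. Values from a fit with a term for these library sets therefore stand beside the results. With that term the Fubp1 libraries are set against siNT A and B alone and the other knockdowns against siNT C alone.

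Most of the exons are short and code for protein throughout. Their median length was 117 nt, 71.9% had at most 150 nt, and the lengths ran from 63 to 5292 nt. Of the 2471 exons 2197 (88.9%) were matched to an exon of the GENCODE vM21 annotation of mouse build GRCm38, and 1752 of these (79.7%) were coding throughout, against 69.6% of 3063 matched alternative exons of the same minimum length and control range that shift the frame. The junction that skips the exon was annotated for 55.5% of the matched in-frame and 42.9% of the matched frame-shifting exons, and 51.3% of the in-frame coding exons began on a codon boundary, against 38.6%. Control inclusion was below 20% for 494 exons, between 20% and 80% for 822, and above 80% for 1155. At the limits of the rule, a 75 nt exon of the polarity gene Scrib (siNT PSI 5.3%, 4.2% and 5.5%) lay just inside the lower one and a 189 nt exon of Dscc1 (5.4%, 2.8% and 6.8%) just outside it. A 75 nt exon of Ano8 (97.8%, 97.0% and 90.1%) lay just inside the upper limit and a 108 nt exon of Bcl2l13 (92.8%, 96.8% and 95.4%) just outside it. In 1447 genes there was 1 such exon and in 415 there were several, up to 10 in Ank3, and no member overlapped another, though exons of 1 gene share its transcripts.

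Sequences are shown for 19 of the exons on which the results turn, from GENCODE vM21 transcripts on GRCm38, in the direction of transcription. Capitals mark the last 3 bases of the exon, which belong to the 5′ splice site. Each is an internal, fully coding exon. Those of Cep170, Sec31a, Pcm1 and Ntrk3 were matched to the annotation by 1 flanking intron only. That of Ppp1r9a was matched by its distance to a matched exon of the gene, so these matches are less certain. The first 7 exons are shown because they were included less after the double knockdown.
Sbf2: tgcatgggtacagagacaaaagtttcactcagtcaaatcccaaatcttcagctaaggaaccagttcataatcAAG
Cep170: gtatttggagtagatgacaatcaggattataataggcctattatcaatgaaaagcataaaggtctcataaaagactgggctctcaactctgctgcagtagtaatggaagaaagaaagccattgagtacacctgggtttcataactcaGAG
Ktn1: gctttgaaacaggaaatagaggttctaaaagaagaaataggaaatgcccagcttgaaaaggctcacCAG
Sec31a: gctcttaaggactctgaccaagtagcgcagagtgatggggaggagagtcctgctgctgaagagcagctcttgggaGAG
Pcm1: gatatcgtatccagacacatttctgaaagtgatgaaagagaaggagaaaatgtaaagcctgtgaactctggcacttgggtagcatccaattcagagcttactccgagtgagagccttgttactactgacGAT
Odf2l: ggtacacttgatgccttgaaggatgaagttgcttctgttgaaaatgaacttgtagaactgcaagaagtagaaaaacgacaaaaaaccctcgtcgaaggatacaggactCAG
Pum2: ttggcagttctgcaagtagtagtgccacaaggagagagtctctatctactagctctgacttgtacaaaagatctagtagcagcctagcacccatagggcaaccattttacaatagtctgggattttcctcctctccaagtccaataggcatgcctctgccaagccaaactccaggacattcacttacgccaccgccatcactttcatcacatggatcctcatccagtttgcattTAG
Their positions are chr7:110341290-110341364 on the minus strand (Sbf2), chr1:176761351-176761500 on the minus strand (Cep170), chr14:47704420-47704488 on the plus strand (Ktn1), chr5:100388534-100388611 on the minus strand (Sec31a), chr8:41310009-41310140 on the plus strand (Pcm1), chr3:145139784-145139894 on the plus strand (Odf2l) and chr12:8733273-8733509 on the plus strand (Pum2).

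The next 4 exons were included more after Fubp1 or double knockdown, and the other 4 are the exons on which the results of the Khsrp and Rbm38 knockdowns turn.
Ntrk3: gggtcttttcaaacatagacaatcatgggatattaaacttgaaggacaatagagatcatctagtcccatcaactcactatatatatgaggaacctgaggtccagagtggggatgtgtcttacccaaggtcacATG
Lphn2: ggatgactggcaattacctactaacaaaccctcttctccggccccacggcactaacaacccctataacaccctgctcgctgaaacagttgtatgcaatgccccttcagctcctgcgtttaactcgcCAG
Ppp1r9a: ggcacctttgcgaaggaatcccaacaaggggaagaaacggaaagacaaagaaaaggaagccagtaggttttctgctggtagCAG
Arhgef10l: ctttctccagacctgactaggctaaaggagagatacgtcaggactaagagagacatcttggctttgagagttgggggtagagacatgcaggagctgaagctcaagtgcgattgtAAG
Plod2: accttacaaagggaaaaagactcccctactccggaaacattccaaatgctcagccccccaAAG
Aplp2: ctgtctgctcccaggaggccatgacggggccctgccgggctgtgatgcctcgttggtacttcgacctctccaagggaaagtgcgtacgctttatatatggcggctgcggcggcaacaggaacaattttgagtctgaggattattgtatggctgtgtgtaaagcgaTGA
Ehbp1: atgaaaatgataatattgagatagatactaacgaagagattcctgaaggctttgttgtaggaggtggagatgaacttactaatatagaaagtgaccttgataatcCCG
Pxdn: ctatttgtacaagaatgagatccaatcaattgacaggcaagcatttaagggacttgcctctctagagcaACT
These lie at chr7:78304292-78304426 on the minus strand (Ntrk3), chr3:148821280-148821408 on the minus strand (Lphn2), chr6:5143406-5143489 on the plus strand (Ppp1r9a), chr4:140586784-140586900 on the minus strand (Arhgef10l), chr9:92601985-92602047 on the plus strand (Plod2), chr9:31167561-31167728 on the minus strand (Aplp2), chr11:22062780-22062887 on the minus strand (Ehbp1) and chr12:29979240-29979311 on the plus strand (Pxdn).

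Fubp1 knockdown changed 64 of the exons in 61 genes and mostly lowered their inclusion. An exon was called at an adjusted p under 0.05 in limma, with Benjamini-Hochberg adjustment over all 60138 events tested, and a difference of group means of at least 10 points. Of the 64 exons (2.59% of the members) 50 were lower and 14 higher, while 0.404% of all events tested (0.0898% higher, 0.314% lower) and 1.69% of the 3542 long frame-shifting exons in the same control range were called. Whether the in-frame share differs from the frame-shifting share was not tested. All events tested include those with mean PSI near 1% or 99%, which have little room to differ by 10 points. The frame-shifting exons are therefore the closer comparison. The median difference over all members was -0.1 points, against -0.33 over all events tested. No called exon had overlapping libraries in the 2 groups. The same held for called exons in every other comparison with calls, so it adds no support to the calls, and it was not counted over all events. The called differences ran from 11.3 to 45.7 points upwards and from 11.6 to 37.5 points downwards. With the term for library sets 48 were called, 42 of them the same exons. Leaving out Fubp1 A left 6 calls, leaving out Fubp1 B 1, leaving out siNT A or B 26 or 28, and leaving out double knockdown A or B 40 or 38. Binomial weights alone called 152, against 0.838% of all events, and the fit without weights called 12. The authors' deposited calls mark 459 of the exons (18.6%) for this knockdown, 306 of them lower, against 5.18% of the tested events with an authors' call, and all 64 exons called here are among the 459.

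**Figure D1:**
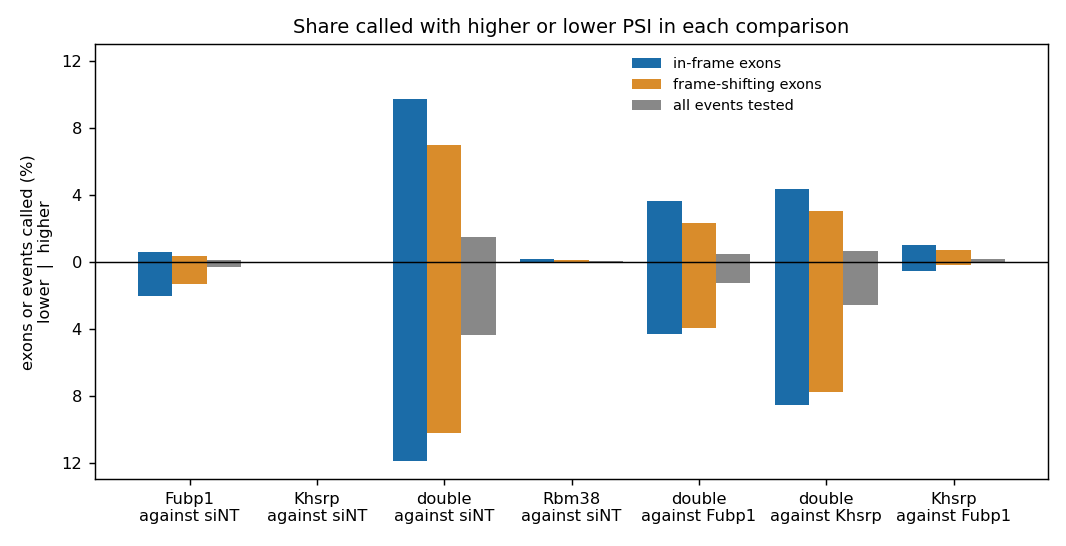
Percentage of exons or events called in each comparison (limma, adjusted p under 0.05 and at least 10 points of PSI), with higher inclusion above and lower inclusion below the zero line, for the in-frame exons, the frame-shifting exons in the same control range and all events tested. In-frame exons were called most often in the double knockdown against siNT, 9.71% higher and 11.9% lower, and none were called in the Khsrp knockdown.

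The exon with the largest rise was an 84 nt exon of Ppp1r9a, whose product neurabin is an actin-binding scaffold of protein phosphatase 1. It had PSI values of 29.9%, 39.2% and 35.1% in the siNT libraries and of 79.1% and 81.7% in the Fubp1 libraries. The difference was 45.7 points, or 2.93 ± 0.26 (SE) in log2 odds of inclusion (adjusted p = 0.00427). A 135 nt exon of Ntrk3, the neurotrophin-3 receptor TrkC, rose likewise, and the transcript it was matched to is a known form of the receptor without the kinase domain. In the siNT libraries its PSI was 49.2%, 40.7% and 44.7%, and in the Fubp1 libraries 83.7% and 85.6%. The rise of 39.8 points had an adjusted p of 0.00511. A 129 nt exon of Lphn2 (now Adgrl2), an adhesion receptor of the latrophilin family, was nearly skipped in the controls. The PSI values were 5.0%, 7.5% and 6.9% in the siNT libraries and 27.7% and 33.2% in the Fubp1 libraries. It rose by 24.0 points (adjusted p = 0.00592). Exons of Syne2 (69 nt), which links the nucleus to the cytoskeleton, of the kinesin Kif13a (105 nt) and of the synaptic scaffold liprin, Ppfia1 (63 nt), rose by 26.4, 24.4 and 23.2 points, with adjusted p = 0.0262, 0.025 and 0.0337. For Ppfia1 the adjusted p was 0.0666 with the term for library sets.

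Among exons that fell, the 75 nt exon of Sbf2, a myotubularin-family protein of membrane traffic, was nearly lost. PSI was 43.9%, 40.0% and 48.6% in the siNT libraries and 9.3% and 5.3% in the Fubp1 libraries. The fall of 36.9 points was -3.37 ± 0.3 (SE) in log2 odds (adjusted p = 0.00427). A 171 nt exon of Fam188a (now Mindy3), a deubiquitinase, fell by a similar amount. It had PSI values of 82.7%, 84.2% and 86.8% in the siNT libraries and of 47.8% and 46.2% in the Fubp1 libraries. That is a difference of -37.5 points (adjusted p = 0.00433). The 150 nt exon of the centrosomal protein Cep170 gave -35.5 points (adjusted p = 0.00766). In the siNT libraries its PSI was 59.1%, 68.0% and 59.8%, and in the Fubp1 libraries 28.8% and 24.7%. Exons of the sialic acid acetyltransferase Casd1 (102 nt), the SUMO protease Senp7 (198 nt) and Pam (201 nt), the enzyme that amidates neuropeptides, each differed by -34.3 points, with adjusted p = 0.00888, 0.0282 and 0.00875. These 3 also kept an adjusted p under 0.05 with the term for library sets.

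**Figure D2:**
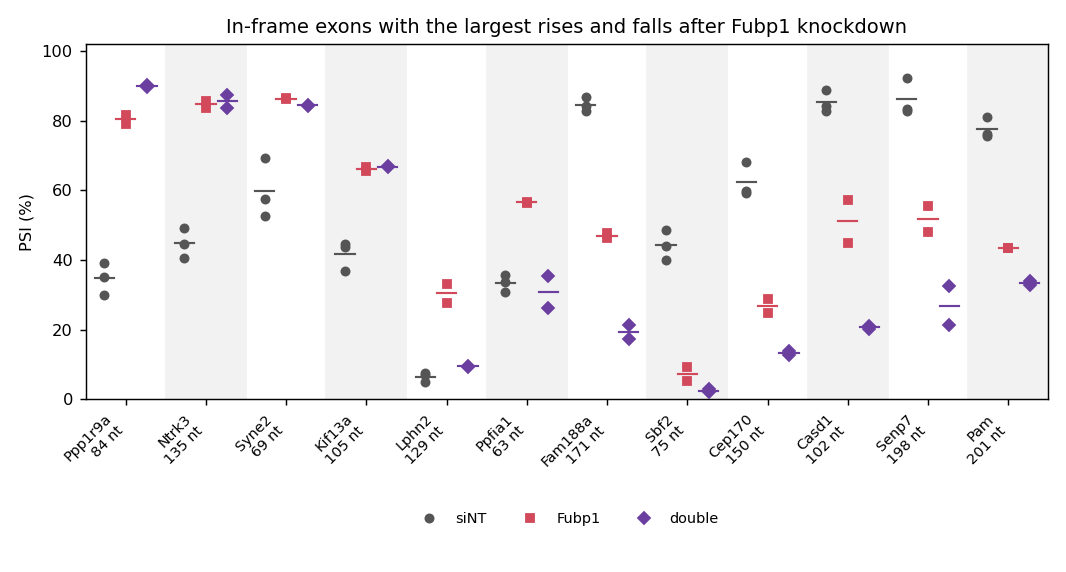
PSI in each library (points, with lines at group means) of siNT, Fubp1 and double knockdown for the 6 exons with the largest rises and the 6 with the largest falls after Fubp1 knockdown. They were taken from called exons with 20 or more reads in every library of both groups and no overlap between the groups. The first 6 exons rose and the other 6 fell in both Fubp1 libraries, and Lphn2 and Ppfia1 lie at 9.5% and 30.7% in the double knockdown, near the controls.

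Khsrp knockdown by itself changed no exon by the same test. Of the 2471 members 409 (16.6%) had an unadjusted p under 0.05, against 9.47% of all events tested, and the smallest adjusted p was 0.0734. A difference of 10 points or more was seen in 308 members (12.5%), against 3.81% of all events. None of the 60138 events tested was called either (0.0%), and the unweighted fit and the fits with a replicate block or a library set term also called 0 members. Without siNT C 3 members were called and without Khsrp B 1. The median difference over the members was 0.72 points, against -0.09 over all events. With weights from the binomial variance alone, 7 exons were called, 3 higher and 4 lower, against 0.0532% of all events. The authors' deposited calls mark 232 of the exons (9.39%, 129 higher and 103 lower), against 2.34% of tested events.

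The 7 exons are named because of their values under that alternative, so their levels are a description. A 117 nt exon of Arhgef10l, a guanine nucleotide exchange factor, was among the 3 with higher inclusion. The PSI values were 18%, 23.8% and 22.3% in the siNT libraries and 46.2% and 44.5% in the Khsrp libraries. Both Khsrp libraries lay above every control, with an adjusted p of 0.113 in the weighted fit used for the calls and 0.032 with binomial weights. In the double knockdown it rose by 41.1 points (adjusted p = 0.000322). Aplp2, a relative of the amyloid precursor protein, has a 168 nt exon that encodes a Kunitz protease inhibitor domain. PSI was 59.2%, 58.7% and 56.2% in the siNT libraries and 69.4% and 70.9% in the Khsrp libraries. Its PSI stood above the controls in the Khsrp knockdown and below them in the Fubp1 knockdown (43.3% and 45.2%), and the test between these 2 knockdowns gave 25.9 points (adjusted p = 0.0192, and 0.202 with the term for library sets). A 63 nt exon of Plod2, which distinguishes the long from the short form of lysyl hydroxylase 2, stood on the other side in both. It had PSI values of 48.9%, 46.6% and 48.6% in the siNT libraries and of 30.8% and 31.6% in the Khsrp libraries. In the Fubp1 libraries it was 58.4% and 58.1%, and Khsrp against Fubp1 gave -27 points (adjusted p = 0.0219, and 0.26 with that term). The other 4 were exons of the cold-shock RNA-binding protein Csda (now Ybx3, 207 nt, 11.8 points), the translational repressor Pum2 (237 nt, -17.1), the junction scaffold Erbb2ip (now Erbin, 117 nt, -17.3) and the 4E-binding protein Eif4enif1 (72 nt, -18.1). None of the 7 had an adjusted p under 0.05 in the fit used for the calls. Khsrp differed from Fubp1 knockdown in 37 exons (24 higher, 13 lower, 1.5% of the members, against 0.243% of all events, 0.143% higher and 0.0998% lower). Of the frame-shifting exons 0.903% differed between the Khsrp and Fubp1 knockdowns. These 2 knockdowns lie in different library sets, and with the term for the sets 0 exons were called. The count was also 0 without Fubp1 A or without Fubp1 B, 3 without Khsrp A, 16 without Khsrp B and 19 without double knockdown A or B.

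The double knockdown changed 535 exons in 459 genes, 240 with higher and 295 with lower inclusion. This is 21.7% of the members, against 5.87% of all events tested (1.49% higher, 4.38% lower) and 17.2% of the frame-shifting exons, where 247 rose and 361 fell. The in-frame and frame-shifting shares were not tested against each other. The median difference over the members was 1.22 points, against -0.58 over all events, and differences of called exons reached 55.2 points upwards and 74.6 points downwards. In 190 of the called exons (67 higher, 123 lower) the difference was 30 points or more, a count not made over all events. With the term for library sets 334 exons were called, 303 of them the same. Leaving out either double knockdown library left 309 or 319 calls. The authors' deposited calls mark 853 exons (34.6%), 398 higher and 455 lower, against 14.9% of tested events, and 527 of the 535 are among them. In the authors' deposited table the neuroblast genes Isl1 and Gap43 were also lower in this knockdown, by log2 fold changes of -1.05 and -0.87. Tubb3 and Stmn2 had deposited values of 0.04 and -0.04 (authors' FDR 0.947 and 0.967), and Hand2 had -0.58 (0.123). The part of these genes in the PSI differences was not tested.

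The counts by control level are a description, since an exon near full inclusion in the controls has little room to rise and one that is nearly always skipped has little room to fall. Of 494 exons with control PSI up to 20%, 69 rose and 10 fell. Of 822 between 20% and 80%, 129 rose and 135 fell, and of 1155 above 80%, 42 rose and 150 fell. By length, 25.6% of 691 exons of 63 to 90 nt were called, 20% of 1086 exons of 93 to 150 nt, 22.0% of 573 exons of 153 to 300 nt, and 12.4% of 121 longer exons.

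The largest rise was again that of Ppp1r9a, at 90.3% and 89.6% in the double knockdown (55.2 points above siNT, adjusted p = 5.3e-05). A 93 nt exon of Stim1, the calcium sensor of the endoplasmic reticulum, rose by 47.3 points (adjusted p = 0.00158). In the siNT libraries its PSI was 18.6%, 13.1% and 20%, and in the double knockdown libraries 63.8% and 65.2%. A 132 nt exon of the nudix hydrolase Nudt13, annotated only in transcripts that are not protein-coding, rose by 50.2 points (adjusted p = 0.00421), a 222 nt exon of Ccdc136 by 46.4 points (0.00184), and a 138 nt exon of Mprip, a myosin phosphatase adaptor, by 47.0 points (0.0195). For the Mprip exon the Khsrp libraries were 64.3% and 15.9% and the adjusted p rose to 0.141 with the term for library sets.

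Among the falls, the 117 nt exon of Erbb2ip (Erbin), a scaffold at cell junctions, had the smallest adjusted p of any member. The PSI values were 81.9%, 82.9% and 77.1% in the siNT libraries and 6.8% and 9.0% in the double knockdown libraries. It fell by 72.8 points, -5.62 ± 0.26 (SE) in log2 odds (adjusted p = 1.13e-05), and stood between at 52.5% and 52.7% after Fubp1 and 60.8% and 66.0% after Khsrp knockdown. A 111 nt exon of Odf2l, a centriolar protein, went from nearly full inclusion to a minority. PSI was 94.4%, 93.7% and 84.7% in the siNT libraries and 19.8% and 13.8% in the double knockdown libraries. Its fall of 74.1 points had an adjusted p of 0.000136. A 183 nt exon of Rpgr, a regulator of the cilium, fell by 69.8 points (0.000145), and a 255 nt exon of the R3H-domain protein R3hdm1 by 67.9 points (7.67e-05). The 171 nt exon of Fam188a fell to 21.2% and 17.2% (-65.4 points, adjusted p = 1.57e-05), and was 27.9 points lower than after Fubp1 knockdown alone (adjusted p = 0.00814, and 0.0812 with the term for library sets). The fall of 74.6 points in a 114 nt exon of Ankrd32 (now Slf1) rests on 22 to 53 reads per library and had an adjusted p of 0.0103.

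**Figure D3:**
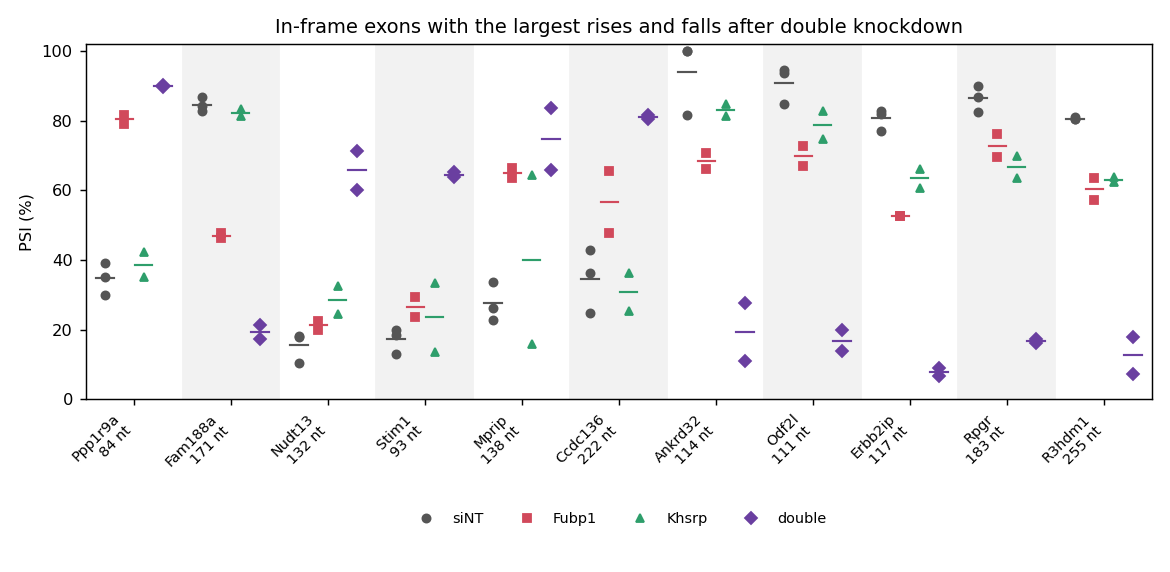
PSI in each library (points; lines are group means) of siNT, the single and the double knockdowns for 11 called exons, 5 of those with the largest rises and the 6 with the largest falls after double knockdown, chosen by the same rule. Nudt13 and Stim1 lie at 60% to 71.4% in both double knockdown libraries and at or below 33.3% in the other libraries shown, and Odf2l, Erbb2ip, Rpgr and R3hdm1 lie at or below 19.8% in the double knockdown.

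The double knockdown was also set against each single one, contrasts in which no control library enters the difference. The control libraries still enter the estimate of spread, since all groups were in 1 fit, and the members were chosen by control PSI. Against Khsrp knockdown, which lies in the same library set, 318 exons were called, 107 higher and 211 lower. This was 12.9%, against 3.27% of all events (0.667% higher, 2.61% lower) and 10.8% of the frame-shifting exons. The count was 363 with the term for library sets, 314 of them the same, but the term hardly alters differences within 1 set. Against Fubp1 knockdown 197 were called, 90 higher and 107 lower. This was 7.97%, against 1.77% of all events (0.469% higher, 1.3% lower) and 6.27% of the frame-shifting exons. That contrast runs across the library sets, and with their term 8 exons were called. Leaving out 1 library of either group left 48 to 57 calls against Fubp1 and 137 to 202 against Khsrp. Of the 240 exons that rose in the double knockdown against siNT, 47 were also higher than in both single knockdowns, and of the 295 that fell, 91 were lower than in both. None was called in the opposite direction against either single knockdown, a count that the shared double knockdown libraries bear on. Joint calls were counted for the members only, so they are not set against all events. For the 240 exons that rose, each knockdown's own values were a median of 21.8 points (double), 7.0 points (Fubp1) and 5.8 points (Khsrp). For the 295 that fell they were -26.9, -11 and -3.5 points, all against the same siNT libraries. Both sets were chosen by their double knockdown values, which makes the double medians larger. The medians therefore do not tell whether the single effects add up.

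The 78 nt exon of Sec31a, a coat protein of vesicles leaving the endoplasmic reticulum, differed most between double and Khsrp knockdown. It had PSI values of 87.1% and 88.6% in the Khsrp libraries and of 23.4% and 20.3% in the double knockdown libraries. The difference was -66.0 points (adjusted p = 0.000164), and siNT stood at 81.5%, 84.1% and 87.7% and Fubp1 at 61.0% and 61.2%. In Pum2, an RNA-binding translational repressor, the 237 nt exon stood at 67.4%, 68.4% and 61.3% in siNT, 48.5% and 45% in Fubp1, 48.2% and 49.0% in Khsrp and 11.6% and 13.8% in the double knockdown. The double was lower than Fubp1 by 34.0 points (adjusted p = 0.00232) and lower than Khsrp by 35.9 points (0.000529). With the term for library sets the adjusted p for Pum2 was 0.0788 against Fubp1 and 0.000475 against Khsrp. Against Fubp1 knockdown the largest differences were those of Dnase1l1 (249 nt, 58.8 points), Rpgr (-56.1 points) and 2210013O21Rik (78 nt, -53.1 points), with adjusted p = 0.0157, 0.00512 and 0.0292. With the term for library sets none of these 3 differences from Fubp1 passed the threshold (adjusted p = 0.247, 0.125 and 0.535). Between Khsrp and Fubp1 knockdown the largest were a 78 nt exon of the collagen gene Col11a2 (45.6 points, on as few as 11 reads), the Ppp1r9a exon (-41.7 points) and a 366 nt exon of the homeodomain factor Cux1 (-40.3 points), with adjusted p of 0.711, 0.202 and 0.424 once the term for library sets was added.

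Lphn2 and Ppfia1 exons were higher after Fubp1 knockdown and lay near the controls in the double knockdown, at 9.7% and 9.3% for Lphn2 and 26.1% and 35.3% for Ppfia1. Double against Fubp1 gave -21.0 points for Lphn2 (adjusted p = 0.0106) and -25.9 points for Ppfia1 (0.018). With the term for library sets these 2 values gave adjusted p = 0.183 and 0.345.

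Rbm38 knockdown raised 4 exons and lowered none. This is 0.162% of the members, against 0.0233% of all events tested (0.0166% higher, 0.00665% lower) and 0.0847% of the frame-shifting exons (3 of 3542). By unadjusted p under 0.05 there were 449 members (18.2%), against 10.4% of all events tested. The authors' deposited calls mark 271 of the exons (11%), 185 higher and 86 lower, against 2.59% of tested events. Binomial weights alone called 33, 26 higher and 7 lower, against 0.208% of all events. A 711 nt exon of Mapt, which encodes the microtubule-binding protein tau, rose from low inclusion. In the siNT libraries its PSI was 8.3%, 8.6% and 11.8%, and in the Rbm38 libraries 29.5% and 27.4%. The difference was 18.9 points (adjusted p = 0.0423), and the double knockdown libraries were also above the controls (22.2% and 28.8%, adjusted p = 0.00556, and 0.0662 with the term for library sets). Exons of Mprip (66 nt, partly coding, a different exon from that above) and of the extracellular matrix peroxidase Pxdn (72 nt) rose by 16.3 and 10.6 points, both with adjusted p = 0.0279. For Pxdn the 2 Rbm38 libraries stood at 95.5% and 94.4% and the other 9 between 73.7% and 84.9%. With the term for library sets the adjusted p of the 4 exons was 0.205 to 0.302, and 1 other exon was called, with lower inclusion. The count was 0 without siNT A or B, either Fubp1 library, either double knockdown library or Rbm38 A, 1 or 2 without Khsrp B or A, 3 without Rbm38 B and 5 without siNT C. In the authors' deposited table Khsrp was also lower in the Rbm38 knockdown (log2 fold change -0.70, FDR 0.0243).

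Ehbp1, an adaptor of endocytic membrane traffic, held the only exon called in opposite directions in 2 knockdowns. Its 108 nt exon stood at 68.7%, 72.8% and 73.4% in siNT and at 67.6% and 67.0% after Khsrp knockdown. It fell to 43.5% and 46.3% after Fubp1 knockdown (-26.7 points, adjusted p = 0.0153) and to 18.4% and 15.5% in the double knockdown (-54.7 points, 5.18e-05), and rose to 89.7% and 89.7% after Rbm38 knockdown (18.1 points, 0.0279). The Rbm38 value gave an adjusted p of 0.223 with the term for library sets. Over the 4 knockdowns 1927 of the 2471 exons were called in none, 46 fell in the Fubp1 and double knockdowns only, 10 rose in those 2 only, and 4 rose and 3 fell in the Fubp1 knockdown only by these calls, which share the siNT libraries. These patterns were counted for the members only, so they are not set against all events.

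**Figure D4:**
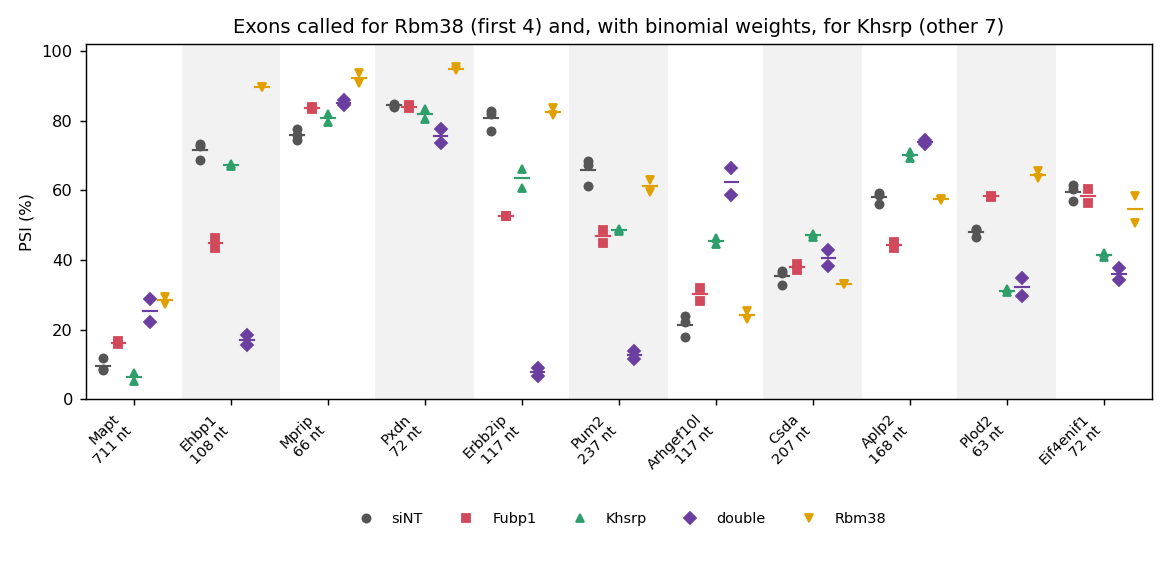
PSI in each library (points; lines are group means) of all 5 groups for the 4 exons called after Rbm38 knockdown and the 7 called after Khsrp knockdown with binomial weights only. The Ehbp1 exon lies at 89.7% in both Rbm38 libraries and at 15.5% and 18.4% in the double knockdown, and the Plod2 exon lies below the controls in Khsrp and double knockdown and above them in Fubp1 and Rbm38 knockdown.

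Host genes were placed in lists by function, and the counts that follow are for the double knockdown, in which 21.7% of all members were called. Among 66 exons of endocytosis and vesicle traffic genes 13 rose and 13 fell (39.4%, median -0.65 points). Those that fell included Sec31a, Sec24b, which selects cargo of the same coat (-49.5 points for a 105 nt exon) and Sbf2. Those that rose included a 108 nt exon of the membrane-bending protein Bin1 (20.2 points, adjusted p = 0.0061) and a 138 nt exon of the collagen export receptor Mia3 (12.6 points, adjusted p = 0.00691), both chosen after their values were seen. In the Fubp1 knockdown 1 of the 66 rose and 6 fell (10.6%, against 2.59% of all members). Over the lists this Fubp1 share ran from 0% (51 exons of transcription factors) to 16.7% (12 exons of kinesin and dynein genes). Of 36 exons of centrosome and cilium genes 4 rose and 12 fell (44.4%, median -1.9 points), with Rpgr, Cep170 and a 132 nt exon of Pcm1, the core of centriolar satellites, among those that fell. The PSI values were 93.7%, 95.4% and 95.9% in the siNT libraries and 42.3% and 35.3% in the double knockdown libraries. The Pcm1 difference was -56.2 points (adjusted p = 2.59e-05), with the single knockdowns at 86.1% and 84.1% (Fubp1) and 94.9% and 95% (Khsrp).

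Of 89 exons of actin and microtubule cytoskeleton genes 19 rose and 10 fell (32.6%, median 1.45 points). Ppp1r9a and Mapt rose, and a 69 nt exon of Ktn1, an anchor for kinesin on the endoplasmic reticulum, fell by 59.5 points (adjusted p = 2e-05). Of 12 exons of kinesin and dynein genes 2 rose and 1 fell (25%, median -0.01 points). The 312 nt exon of the cytokinesis motor Kif23 rose by 31.1 points and the 249 nt exon of the axonal motor Kif1b fell by 25.2, and for Kif23 the adjusted p was 0.0943 with the term for library sets. In adhesion and neuronal surface genes 2 of 39 rose and 7 fell (23.1%, median -1.32 points), including a 117 nt exon of the PDZ scaffold Mpdz (-47.5 points).

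The remaining lists given here had calls in both directions too, as those above did. Of 83 exons of chromatin genes 5 rose and 14 fell (22.9%, median -2.05 points), among them exons of Mllt10, a partner of the histone methyltransferase Dot1l (96 nt, -53.4 points), and of the NuRD subunit Gatad2a (75 nt, -50.9 points). Of 58 exons of RNA processing genes 9 rose and 12 fell (36.2%, median 0.08 points), with R3hdm1 and Pum2 among those that fell. DNA repair and cell cycle genes had 3 exons higher and 7 lower of 37 (27%, median 0.4 points), with a 207 nt exon of the Fanconi pathway helicase Fancm (-52.9 points) and a 204 nt exon of the cohesin factor Pds5a (-48.3) among the latter. Transcription factors had 8 higher and 5 lower of 51 (25.5%, median -0.42 points), protein kinases and phosphatases 13 and 12 of 65 (38.5%, median 0.53 points), ubiquitin and SUMO genes 3 and 12 of 60 (25%, median -2.5 points), and channels and transporters 4 and 3 of 34 (20.6%, median 0.25 points). Over all events tested 5.87% were called, with a median of -0.58 points, and no list was tested against the others.

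Of the 415 genes with several members, 56 had several called in the double knockdown, in 35 all lower, in 15 all higher and in 6 in both directions. In that knockdown 21.7% of all members were called. Genes were counted for the members only, so the 56 are not set against all events. The genes in this and the next paragraph were chosen after their values were seen. Ccdc136 had 7 of its 8 members higher and Dst, the cytoskeletal linker dystonin, 4 of 7, including a coding exon of 5292 nt with mean PSI of 5.7% in siNT and 38.4% in the double knockdown (adjusted p = 0.0016). All 4 members of Pcm1 were lower and all 4 of Ttc13 higher. In Cep164, a protein of centriole appendages, 3 exons of 144, 147 and 297 nt rose together, the last from a mean of 38.6% in siNT to 82.3% in the double knockdown (adjusted p = 0.00146), with 70.5% after Khsrp and 36.3% after Fubp1 knockdown. Such exons share transcripts and junction reads and are not independent.

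Of the 6 genes with both directions, 4 held neighbouring exons whose PSI added up to between 92.6% and 108.4% in every library. They are Mapk8 and Mapk9, the stress-activated kinases JNK1 and JNK2, the transcription factor Mef2a and the membrane protein Tmem87a. The Mapk8 and Mapk9 exons have 72 nt each and are shown because the exons alike in sequence moved in opposite directions.
Mapk8 upstream exon: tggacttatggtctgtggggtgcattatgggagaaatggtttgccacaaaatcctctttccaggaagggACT
Mapk9 upstream exon: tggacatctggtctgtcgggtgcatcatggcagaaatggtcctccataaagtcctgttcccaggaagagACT
Mapk8 downstream exon: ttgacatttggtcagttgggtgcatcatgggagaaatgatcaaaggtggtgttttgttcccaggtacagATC
Mapk9 downstream exon: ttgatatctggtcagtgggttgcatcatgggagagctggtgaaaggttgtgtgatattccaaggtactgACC
They lie at chr14:33390673-33390744 on the minus strand and chr14:33390242-33390313 on the minus strand (Mapk8) and at chr11:49873836-49873907 on the plus strand and chr11:49874264-49874335 on the plus strand (Mapk9). The upstream exons of the 2 genes are the same at 59 of 72 bases (81.9%) and the downstream ones at 57 (79.2%), while the 2 exons of Mapk8 share 45 of 72 and those of Mapk9 share 47. The Mapk9 upstream and Mapk8 downstream exons share 52 of 72 (72.2%), and the Mapk8 upstream and Mapk9 downstream exons share 43. In Mapk8 the upstream exon had PSI values of 56.5%, 53.3% and 48.2% in siNT and 20.7% and 32.8% in the double knockdown (-26.0 points, adjusted p = 0.00885), and the downstream exon rose by 24.4 points (0.00838). In Mapk9 the upstream exon went from 20.3%, 12.6% and 9.9% to 42.1% and 37.3% (25.5 points, adjusted p = 0.00639), and the downstream exon fell by 29.0 points (0.00317). The double knockdown thus raised the downstream exon of Mapk8 and the upstream exon of Mapk9. In Mef2a the 138 nt exon rose by 31.0 points and its 132 nt neighbour fell by 28.4 points, and in Tmem87a a 72 nt exon rose by 18.6 and its 69 nt neighbour fell by 23 points. The Tmem87a pair was also called after Fubp1 knockdown, by 18.3 and -20 points (adjusted p = 0.0365 and 0.0378).

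Exons that fell in the double knockdown were poorer in G and C and had longer introns than those that rose. Median GC content was 46.3% in 277 matched exons that fell, 54.3% in 218 that rose and 52.3% in 1702 not called. The upstream intron had a median of 2680, 1230 and 1840 nt and the downstream intron of 2680, 1360 and 1860 nt in the same order. Of the exons that fell 88.1% were coding throughout, and of those that rose 77.1%. Frame-shifting exons showed medians in the same order, 42.1% GC in 329 that fell, 53.8% in 210 that rose and 51.5% in 2524 not called. The room to rise or fall depends on control PSI, so the GC content is also given within control ranges. Between 20% and 80% control PSI it was 47.7% in 127 exons that fell and 54.3% in 124 that rose, and above 80% it was 45% in 141 and 57.1% in 38. The exons that fell ended in AG in 58.5% of cases and those that rose in 49.1%, against 57.9% of all matched members. These are descriptions of called exons, with no test of the difference, and intron sequence was not analysed here.

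**Figure D5:**
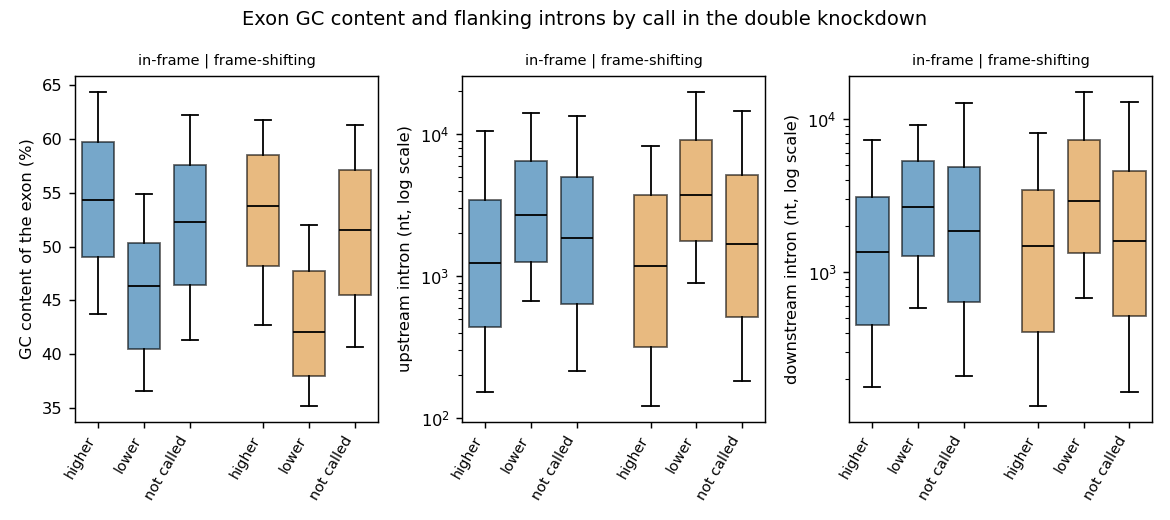
GC content and flanking intron lengths (log scale) of matched in-frame and frame-shifting exons by their call in the double knockdown against siNT; boxes give the quartiles and median and whiskers the 10th and 90th percentiles. In both classes the exons with lower inclusion have the lowest median GC content (46.3% and 42.1%) and the longest median introns.

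Host gene expression moved too, in the authors' deposited table. Of 1794 host genes with an authors' test, 45% had an FDR under 0.05 in the double knockdown, 297 higher and 511 lower, against 26.9% of all 23347 genes tested by the authors. Host genes had to supply at least 10 reads for an exon in every library, which was not asked of all genes. Expression level was not matched between the 2 sets. Among 442 hosts of exons called there the authors' values were 52 higher and 165 lower (49.1%), with a median deposited log2 fold change of -0.23, against -0.13 over all hosts. In the Fubp1 knockdown 19 of 59 hosts of called exons were higher and 7 lower by the authors' test (44.1%), against 438 higher and 271 lower of the 1794 hosts of all members (39.5%) and 22.5% of all genes in the authors' table. For Rbm38 none of the 4 hosts changed by the authors' FDR. Pcm1 fell by 1.94 on the log2 scale in the authors' deposited table after double knockdown (FDR 1.55e-24), and Sec31a had a deposited log2 fold change of -0.12 (authors' FDR 0.646). The part of expression changes in the PSI differences was not tested.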

How the data were processed

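RNA-seq of 11 N2A libraries was analysed from tables made by the authors. The deposited event table gives PSI as a percent per event and library, with inclusion and exclusion reads, in the layout of vast-tools (version and build not given in the sources used here). A second deposited table gives PSI per group, here a score since it passes 100, and the authors' true or false calls, whose criterion is not given. Gene RPKM, log2 fold change, p-value and FDR per group were deposited by the authors, and the submitters' processing notes name Salmon 0.14.1, edgeR and mm10 without their roles.

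Events with at least 10 reads in every library and mean PSI from 1 to 99 (60138) were tested with limma 3.58.1 (R 4.3.3) on log2((inclusion + 0.5)/(exclusion + 0.5)), all groups in 1 fit, with weights from the binomial variance plus an extra library SD of 0.351 log2 odds and robust empirical Bayes moderation. Adjustment was by Benjamini-Hochberg over all events, and a call needs an adjusted p under 0.05 and 10 points. The script was tested on simulated data. Reads carry no molecular identifiers, so their number covers counting error only. Table coordinates did not follow GRCm38 for 97.8% of matched exons, so exons were matched to GENCODE vM21 by gene, length and flanking introns (1792 by both, 293 by 1) or by distance to a matched exon (112). Replicate letters did not pair libraries (correlations of A minus B from -0.062 to 0.058). Exons named are the up to 6 largest called changes each way per knockdown, the up to 3 largest per contrast of knockdowns, those called in opposite directions, up to 2 per gene list, and those at the limits of the rule. The up to 6 per knockdown also needed 20 or more reads in every library of both groups and no overlap between the groups. Others are named as chosen after their values were seen, as are the 7 exons of the Khsrp knockdown and the choice of sequences. The members, lists and tests were chosen with earlier results of these data known. One exon, 1 gene list and 1 marker are not reported here. Alternatives were other weights, a term for library sets, a replicate block, 20 reads, a pseudocount of 1, 20 points and leaving out each library.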

Additional observations from a re-analysis of the deposited data

How the results depend on the processing

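None of the named exons' differences changed sign under the alternatives run for them. The counts changed as follows, and the cause was not tested except where fewer samples or a stricter threshold is the change itself. Without weights the calls were 12 for Fubp1 and 0 for Rbm38 against siNT, 124 for double against Fubp1 and 4 for Khsrp against Fubp1. Binomial weights alone gave 152 calls for Fubp1, 7 for Khsrp, 33 for Rbm38 and 86 for Khsrp against Fubp1. The term for library sets gave 334 for the double knockdown, 1 for Rbm38 (0 higher and 1 lower, against 4 and 0 without the term), 8 for double against Fubp1 and 0 for Khsrp against Fubp1. With the replicate block, which rests on letters that do not pair the libraries, there were 32 calls for Fubp1, 515 for the double knockdown and 0 for Rbm38. A threshold of 20 points left 40 calls for Fubp1, 347 for the double knockdown and 0 for Rbm38, and a pseudocount of 1 gave 56 for Khsrp against Fubp1.

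Leaving out 1 library at a time gave 1 to 60 calls for Fubp1, 0 to 3 for Khsrp, 309 to 533 for the double knockdown and 0 to 5 for Rbm38. Between knockdowns it gave 48 to 211 for double against Fubp1, 137 to 329 for double against Khsrp and 0 to 54 for Khsrp against Fubp1. A group with 1 library left is assumed to vary like the others. Of 155 results for named exons, 95 stayed past their threshold with the term for library sets and 60 did not, 29 and 14 of these in double and Khsrp against Fubp1. Of the 95, 35 are of double against Khsrp, a contrast within 1 library set whose differences the term hardly alters. With the replicate block 140 stayed and 15 did not. Exons with few reads, such as those of Nudt13, Dnase1l1, Col11a2 and Ankrd32, have the least certain PSI. With 2 libraries a group small changes may have been missed.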
